A study of Mus musculus with 6 samples.

Results

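The 6 transcription factor genes *Gata2*, *Gata3*, *Hand1*, *Isl1*, *Tfap2a* and *Tfap2b* were followed through the neurons of 5 autonomic ganglia of the newborn mouse. They were taken by symbol, 6 of the 32285 genes listed, because they are known as factors of the sympathetic lineage. The list was made with earlier results of these data known. The paper's own screen had placed *Gata2*, *Gata3*, *Hand1* and *Isl1* among factors of sympathetic and pelvic neurons, and *Tfap2b* with the noradrenergic phenotype. Those patterns are therefore no independent finding here. Each ganglion was dissected whole at P5 from pups of both sexes that carried a BAC transgene driving Cre in autonomic neurons and a Cre-dependent tdTomato reporter at the *Rosa* locus, so all groups carry the same alleles and there is no other genotype or treatment. Libraries were made in 2 rounds at 2 sites. The first round, with the v2 kit, held the stellate, the sphenopalatine and one pelvic ganglion preparation (pelvic_1), and the second, with the v3 kit, held the coeliac, the lumbar and another pelvic preparation (pelvic_2). The stellate, coeliac and lumbar ganglia are sympathetic and the sphenopalatine ganglion is parasympathetic. The number of pups behind each library is not given in the sources used here. Only the pelvic ganglion had 2 libraries, so no test was made between ganglia, and ganglia are set side by side within a round.

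Sympathetic neurons arise from trunk neural crest and most release noradrenaline, made from tyrosine by tyrosine hydroxylase (*Th*) and dopamine beta-hydroxylase (*Dbh*). The GATA zinc-finger proteins, the basic helix-loop-helix protein Hand1, the LIM-homeodomain protein Islet-1 and the AP-2 proteins act in this lineage. AP-2 proteins also act early in the neural crest, which gives rise to ganglionic glia as well. Cholinergic neurons use choline acetyltransferase (*Chat*), the vesicular transporter VAChT (*Slc18a3*) and the choline transporter (*Slc5a7*) instead.

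In GRCm38, *Gata2* (ENSMUSG00000015053) lies on chromosome 6 from 88193891 to 88207032 on the plus strand, and *Gata3* (ENSMUSG00000015619) on chromosome 2 from 9857078 to 9890034 on the minus strand. *Hand1* (ENSMUSG00000037335) spans 57828705 to 57832818 of chromosome 11, minus strand, and *Isl1* (ENSMUSG00000042258) spans 116298281 to 116309689 of chromosome 13, minus strand. *Tfap2a* (ENSMUSG00000021359) lies on chromosome 13 from 40715302 to 40738376, minus strand, and *Tfap2b* (ENSMUSG00000025927) on chromosome 1 from 19208914 to 19238576, plus strand. *Gata3* shares 77 exonic bases with a gene on the same strand, 9230102O04Rik, and such reads could be lost or split by the counting. The other members share no exonic base with a gene on the same strand.

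RefSeq promoter windows of build GRCm38.p6 were at hand for 5 of the 6 members, all but *Hand1*. The 250 bases before the start are shown for the 3 whose level differed most between the pelvic classes described below and whose window lies outside annotated exons but for 1 base, since these genes moved together. Capitals mark matches, on either strand, to GATAA (the core site of GATA proteins), CANNTG (an E-box, the site of basic helix-loop-helix proteins), GCCNNNGGC (an AP-2 site) or TAATTA (a homeodomain core). The windows are *Gata2* at chr6:88193641-88193890 on the plus strand, upstream of the gene, *Isl1* at chr13:116309689-116309938 on the minus strand, upstream of the gene and ending at its first base, and *Tfap2b* at chr1:19211804-19212053 on the plus strand, intronic in the GENCODE M21 gene model.
Gata2: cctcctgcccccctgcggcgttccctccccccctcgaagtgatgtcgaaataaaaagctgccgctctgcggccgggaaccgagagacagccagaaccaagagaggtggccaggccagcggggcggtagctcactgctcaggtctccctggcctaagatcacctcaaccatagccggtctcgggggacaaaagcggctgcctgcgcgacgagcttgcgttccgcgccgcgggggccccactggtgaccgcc
Isl1: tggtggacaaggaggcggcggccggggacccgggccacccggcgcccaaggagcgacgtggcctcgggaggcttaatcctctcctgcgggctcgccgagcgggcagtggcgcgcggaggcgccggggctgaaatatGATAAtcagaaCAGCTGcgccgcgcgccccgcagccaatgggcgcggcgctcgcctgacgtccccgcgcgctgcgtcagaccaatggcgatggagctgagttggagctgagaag
Tfap2b: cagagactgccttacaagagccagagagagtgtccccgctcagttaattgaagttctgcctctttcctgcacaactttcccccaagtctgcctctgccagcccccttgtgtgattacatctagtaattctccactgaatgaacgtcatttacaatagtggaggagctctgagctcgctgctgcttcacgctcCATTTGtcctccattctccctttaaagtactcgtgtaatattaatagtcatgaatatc

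The *Isl1* window held 1 GATAA match and 1 E-box, the *Tfap2b* window 1 E-box, and the *Gata2* window none of the 4 motifs. A second RefSeq start of *Gata2*, at chr6:88198414-88198663, held 1 AP-2 match and the *Gata3* window, at chr2:9878601-9878850, held 3. Of all 32851 promoter windows of this length, 22.6% held GATAA, 66.2% an E-box, 13.7% the AP-2 letters and 4.84% TAATTA. The *Isl1* and *Gata2* windows were rich in G and C, at 71.2% and 67.2%, against a median of 52.4% over all windows, while that of *Tfap2b* stood at 46.4%. A match is a run of letters and no evidence of binding.

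Transcripts were counted by unique molecular identifiers (UMIs), and the 6 libraries held between 39353313 and 113352559 UMIs. After filters on genes and mitochondrial RNA, neurons were taken by *Stmn2*, *Stmn3*, *Gap43* and *Tubb3*, between 237 in the coeliac and 2724 in the stellate library, and each neuron had a UMI of *Stmn2*. Median UMIs per neuron ran from 26651 in the stellate to 108598 in the pelvic_2 library. The 3 libraries of the first round shared between 20 and 49 cell barcodes in pairs after the filters, and no other pair shared more than 4. A neuron was called noradrenergic with at least 2 *Th* UMIs and more of them than of *Chat*, *Slc18a3* and *Slc5a7* together, and cholinergic in the opposite case. This gave 2622 noradrenergic and 49 cholinergic neurons in the stellate, 225 and 0 in the coeliac, 836 and 47 in the lumbar, 1 and 1890 in the sphenopalatine, 126 and 760 in the pelvic_1 and 33 and 325 in the pelvic_2 library.

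Of the 6 factors 5 were present in almost every sympathetic neuron, in nearly all or a part of pelvic neurons, and in next to none of the sphenopalatine neurons. The other one, *Tfap2a*, was a glial transcript in every library. *Gata2* had a UMI in 97.0% of stellate, 97.0% of coeliac and 95.3% of lumbar neurons, in 58.7% and 58.6% of the neurons of the pelvic libraries, and in 5 of 1903 sphenopalatine neurons. *Gata3* was found in 94.4%, 93.2% and 94.9% of neurons of the 3 sympathetic ganglia, in 95.2% and 90.7% of pelvic and in 10 sphenopalatine neurons. At full depth the shares of the 2 GATA genes thus parted widely in the pelvic ganglion only. There a mean of 92.9% ± 3.2 (SD, n = 2 libraries) of neurons had *Gata3* and 58.7% ± 0.034 had *Gata2*.

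*Hand1* had a UMI in 90.4% of stellate, 94.9% of coeliac and 89.2% of lumbar neurons, in 91.6% and 88.2% of pelvic neurons and in 1 sphenopalatine neuron. *Isl1* was found in 98.2%, 98.3% and 97.6% of the sympathetic neurons, in 88.4% and 85.5% of pelvic and in 2 sphenopalatine neurons. *Tfap2b* was found in 97.7%, 98.3% and 96.5% of sympathetic neurons, in 24.4% and 21.1% of pelvic neurons and in 0 of 1903 sphenopalatine neurons, which allows a share of up to 0.158% of neurons with a UMI at this depth, and is no limit on neurons that express the gene. So *Tfap2b*, unlike the other 4, was missing from most of the pelvic neurons captured, at this depth. Noradrenergic neurons made up 14.1% and 9.04% of the neurons of the pelvic libraries, and shares over all pelvic neurons depend on that mix. In adult male tissue the paper counted CHAT and TH cells, by protein, in near equal numbers.

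Depth sets such shares, since each UMI is a chance to see a gene. With each neuron thinned to 4000 UMIs, *Gata2* was left in 59.6% of stellate, 70.7% of coeliac and 59.1% of lumbar neurons and in 18.4% ± 3.0 (SD, n = 2 libraries) of pelvic neurons. *Isl1* was left in 73.3%, 76.3% and 78.5% of the sympathetic and in 35.2% ± 1.6 of the pelvic neurons. *Tfap2b* was left in 68.6%, 72.0% and 69.9% of the sympathetic and in 12.7% ± 3.0 of the pelvic neurons. *Gata3* and *Hand1* came closer in both kinds of ganglia. *Gata3* was left in 49.6%, 56.9% and 53.4% of the sympathetic and 45.5% ± 2.4 of the pelvic neurons. Thinned, it thus lay below *Gata2* in each sympathetic library and above *Gata2* in the pelvic neurons. *Hand1* was left in 53.6%, 50.4% and 32.4% of the sympathetic and 38.2% ± 2.9 of the pelvic neurons.

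Droplets also take up free RNA, and glial cells of the same library were used to gauge it. RNA of the glial cells themselves would be counted with it. Of the 5 factors other than *Tfap2a*, each had a UMI in between 6.52% and 16.8% of the 2899 stellate glial cells, whose median was 3522 UMIs. In the other sympathetic libraries the range was 4.51% to 18.2%, and in the pelvic libraries 2.60% to 5.26%. Set against the neurons by level, stellate glia held between 12.7% and 17.1% of the neuronal level of these genes, and between 15.5% and 19.0% of that of *Stmn2*, *Tubb3* and *Gap43*. In the other libraries outside the sphenopalatine these factors stood in glia at 3.29% to 18.4% of their neuronal level. In pelvic_1 they ranged from 8.46% to 18.4%, against 8.95% to 11.9% for *Stmn2*, *Tubb3* and *Gap43*. In pelvic_2 they ranged from 3.30% to 11.4%, against 2.87% to 3.54%. The part of free RNA in these glial values was not tested. Sphenopalatine glial cells had no UMI of *Hand1*, *Isl1* or *Tfap2b* among 1569 cells, which allows a share of up to 0.191%. *Gata2*, with 31 UMIs in these glial cells, stood at 5700% of its level in the sphenopalatine neurons.

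The sphenopalatine neurons set the floor. Together the 5 factors gave 20 UMIs in 17 of 1903 neurons, or 0.893%, with 1 neuron holding more than one of them, although the median neuron there held 38127 UMIs, more than in the stellate library of the same round. Levels are given in CPM, the UMIs of a gene in the summed cells of a group scaled to the UMIs of all genes there. The level of *Isl1* was 345 CPM in stellate neurons and 0.0395 in sphenopalatine neurons, from 3 UMIs, a ratio of 8737 with a 95% counting interval of 2989 to 42367. For *Gata3* the ratio of stellate to sphenopalatine neurons was 1145 (640 to 2294) and for *Gata2* it was 3442 (1475 to 10602). *Tfap2b* was at least 8136-fold higher in stellate neurons, by the limit of 3 UMIs. Intervals and limits here cover counting error only, from 1 library of each ganglion.

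*Tfap2a* went against its listing as a sympathetic neuronal factor. Its level in neurons lay between 0.222 CPM in the coeliac and 0.981 in the pelvic_1 library, and between 24.2 and 40.5 in the glial cells of the 6 libraries. Glia stood above neurons by a ratio of 28.3 (19.9 to 41.4) in pelvic_1, where the gap was smallest, and by 163 (102 to 278) in the lumbar library, where it was largest. A UMI was seen in 318 of 2899 stellate glial cells, and in 25.6% of coeliac, 33.5% of lumbar, 13.3% of sphenopalatine, 12.4% of pelvic_1 and 28.2% of pelvic_2 glia, the lower shares being those of the shallower first round. In neurons the share ran from 1.62% to 5.48%. Where neurons with more glial transcripts were left out (glial marker mean below 0.5), the mean pelvic neuronal level went from 0.924 to 0.3305, so the few neuronal UMIs moved with glial markers. Sphenopalatine glia had it at 29.99 CPM, between the values of the other libraries.

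Within the pelvic ganglion the noradrenergic neurons held all 5 neuronal factors at levels near or above those of sympathetic noradrenergic neurons. Cholinergic neurons there held less of each, with the widest gap for *Tfap2b*. This was the one comparison with replicate libraries. It was tested with edgeR's quasi-likelihood test on UMIs summed by class in each pelvic library, with library as a block and Benjamini-Hochberg adjustment. Of the 6 members 5 were called higher in noradrenergic neurons at an adjusted p under 0.05, beside 9.16% of the 14176 genes tested that were called in that direction and 20.5% called in either. The classes were cut on *Th*, *Chat*, *Slc18a3* and *Slc5a7* and not on the members.

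*Tfap2b*, the AP-2 beta gene, stood at 472 CPM in the noradrenergic and 9.87 in the cholinergic neurons of pelvic_1, and at 556 and 8.36 in those of pelvic_2. The noradrenergic values lay far above both cholinergic values, which were near the 11.9 and 7.37 of the glial cells of the same libraries. Glial droplets were shallower, with medians of 4147 and 11980 UMIs against 39468 and 110142 in cholinergic neurons, so that like CPM need not mean like background, which was not tested. Among the clusters of pelvic neurons described below, other than cluster 4, mean *Tfap2b* ran from 0.463 CPM in cluster 1 to 34.2 in cluster 6. The log2 difference was 5.79 ± 0.19 (SE), with an adjusted p of 2.79e-190 (edgeR). It ranked 19th among the 14176 genes by size in that direction. All of the 126 and 33 noradrenergic neurons had a *Tfap2b* UMI, against 11.2% and 13.5% of the cholinergic neurons and 2.60% and 4.18% of the glial cells.

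*Gata2* stood at 209 and 241 CPM in the noradrenergic neurons of pelvic_1 and pelvic_2, and at 45.3 and 35.5 in the cholinergic neurons. Both cholinergic values lay above the glial 9.11 and 4.91. The log2 difference was 2.46 ± 0.16 (SE), adjusted p = 1.19e-53 (edgeR). *Isl1* stood at 294 and 362 against 103 and 116 CPM, a log2 difference of 1.56 ± 0.16 with an adjusted p of 7.01e-22 (edgeR). For both genes each noradrenergic value lay above both cholinergic values, as it did for *Tfap2b*, *Hand1* and *Gata3*. The share of all genes with such an order was not counted.

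*Hand1* stood at 277 and 245 CPM in noradrenergic against 120 and 105 in cholinergic neurons, a log2 difference of 1.19 ± 0.15 (SE) with an adjusted p of 1.81e-13 (edgeR). *Gata3* differed least, at 230 and 240 against 175 and 136, a log2 difference of 0.59 ± 0.15 with an adjusted p of 0.000912 (edgeR). The *Gata3* call was lost when neurons were thinned to 4000 UMIs (log2 0.39, edgeR adjusted p = 0.43), and both the *Gata3* and the *Hand1* call without the library block (adjusted p = 0.406 and 0.0609). *Tfap2a*, with 3 and 2 UMIs in the noradrenergic sums, gave a log2 difference of -0.80 ± 0.73 and an adjusted p of 0.531. With 4 sums each gene had 1 residual degree of freedom, edgeR's prior degrees of freedom were estimated as infinite, and the spread was thus taken from all genes together. The p-values rest on that pooled spread. It measures no more than how class differences varied between these 2 libraries, since the block takes out the difference between the libraries themselves. The libraries also differ in round, site and chemistry.

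**Figure D1:**
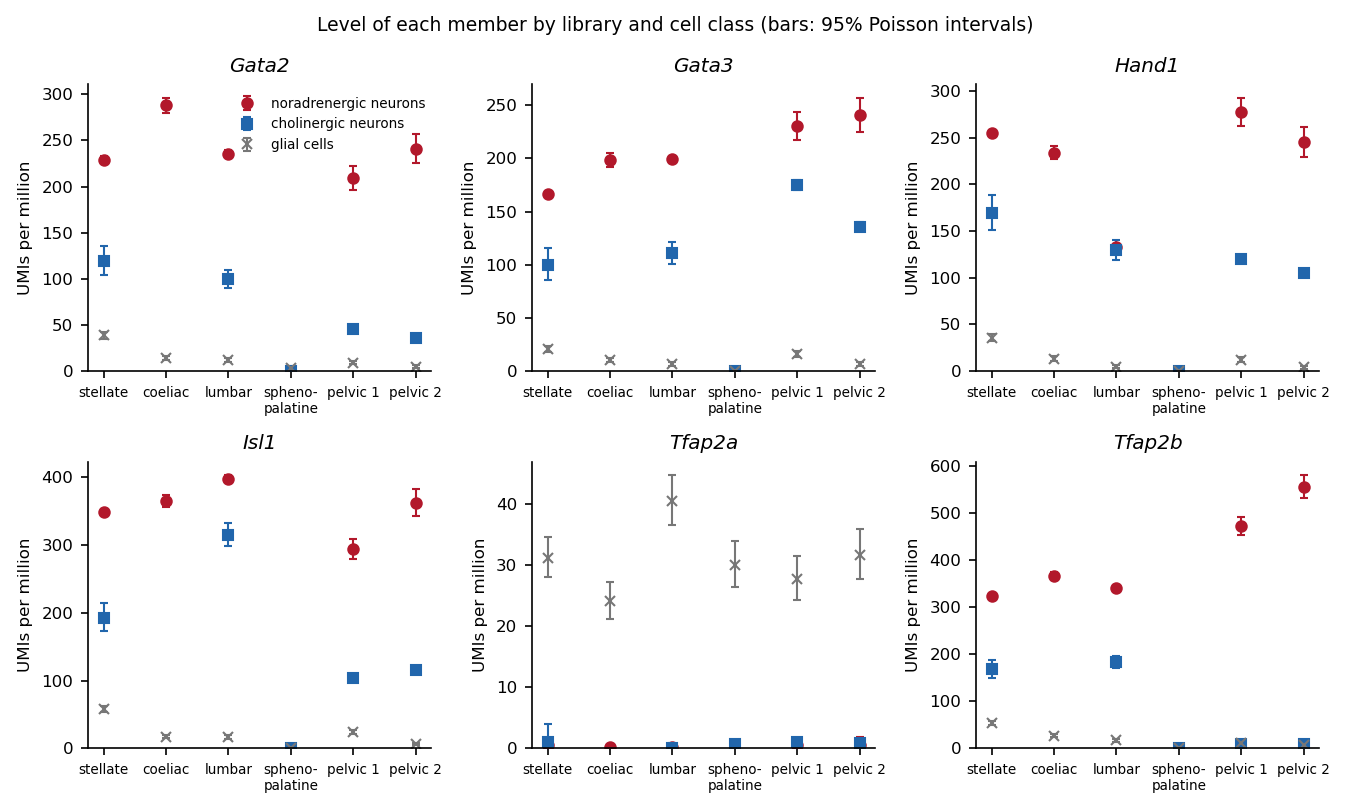
Level of each factor (CPM, from summed UMIs) in noradrenergic neurons (red circles), cholinergic neurons (blue squares) and glial cells (grey crosses) of each library, for groups of at least 20 cells, with 95% Poisson intervals of the counts. Within a library noradrenergic neurons lie highest for every factor but *Tfap2a*, the sphenopalatine points sit at or near 0, and for *Tfap2a* the glial cells, at 24.2 to 40.5, lie above the neurons in every library, as they do for *Gata2* in the sphenopalatine (3.75) and, beside cholinergic neurons, for *Tfap2b* in pelvic_1 (11.9 against 9.87).

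Among noradrenergic neurons all 5 factors were present in the stellate, coeliac, lumbar and pelvic ganglia, at levels that differed in part. *Hand1* ran from 133 to 277 CPM and *Tfap2b* from 324 to 556. Values are listed here across both rounds, which differ in kit and site. *Gata2* was at 229 CPM in stellate, 288 in coeliac and 235 in lumbar noradrenergic neurons, so the stellate and lumbar values lay between the pelvic ones of 209 and 241. *Isl1* was at 349, 364 and 398, with the coeliac and lumbar values above both pelvic values (294 and 362). *Hand1* was at 255, 234 and 133, and the lumbar value was below every other library. *Gata3* was at 166, 198 and 199, below both pelvic values (230 and 240), and *Tfap2b* at 324, 366 and 342, also below both (472 and 556). The coeliac and lumbar values of *Gata3* had overlapping counting intervals, at 192 to 205 and 196 to 202.

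Within the second round, lumbar noradrenergic neurons thus held *Hand1* at a lower level than coeliac neurons, by a ratio of coeliac to lumbar of 1.75 (1.69 to 1.82), while *Gata3* was level between them at 0.998 (0.961 to 1.04). Pelvic_2 noradrenergic neurons held *Tfap2b* at 1.63 times the lumbar level (1.55 to 1.70), and in the first round pelvic_1 noradrenergic neurons held it at 1.46 times the stellate level (1.40 to 1.52). With 1 library of each sympathetic ganglion, these ratios carry counting intervals and no test.

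Cholinergic neurons of the sympathetic ganglia also held the 5 factors, and here the ganglia parted over *Tfap2b*. The 49 cholinergic neurons of the stellate held *Tfap2b* at 168 CPM and the 47 of the lumbar at 183, with a UMI in 89.8% and 91.5% of them. Pelvic cholinergic neurons held 0.0589 times the stellate level (0.0501 to 0.0691) within the first round, and 0.0457 times the lumbar level (0.0397 to 0.0525) within the second. For *Gata2* the same ratios were 0.381 (0.330 to 0.441) and 0.356 (0.318 to 0.399). For *Gata3* they were 1.75 (1.51 to 2.04) and 1.23 (1.12 to 1.35), so the pelvic cholinergic neurons held more *Gata3* than the sympathetic ones and less *Gata2*. *Isl1* was at 0.535 (0.480 to 0.599) and 0.368 (0.345 to 0.391), and *Hand1* at 0.71 (0.633 to 0.80) and 0.815 (0.745 to 0.893).

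The noradrenergic to cholinergic ratio of *Tfap2b* was 47.8 (42.5 to 54.0) in pelvic_1 and 66.5 (58.6 to 75.6) in pelvic_2, beside 1.93 (1.73 to 2.17) in the stellate and 1.87 (1.74 to 2.01) in the lumbar library. For *Gata2* it was 4.62 and 6.79 in the pelvic libraries against 1.93 in the stellate and 2.36 in the lumbar. For *Hand1* it was 2.31 and 2.32 against 1.51 and 1.03, the lumbar value not differing from 1 within its interval of 0.945 to 1.13. *Gata3* had ratios of 1.32 and 1.77 in the pelvic and 1.66 and 1.80 in the sympathetic libraries, so the libraries did not part by ganglion. The difference between ganglia was not tested. The cholinergic class of the stellate also held *Th* at 261 and *Dbh* at 756 CPM, against 3.02 and 21.4 in that of pelvic_1, and glial cells of the stellate held *Tfap2b* at 53.9, and the part of free RNA or of mixed droplets in these levels was not tested.

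**Figure D2:**
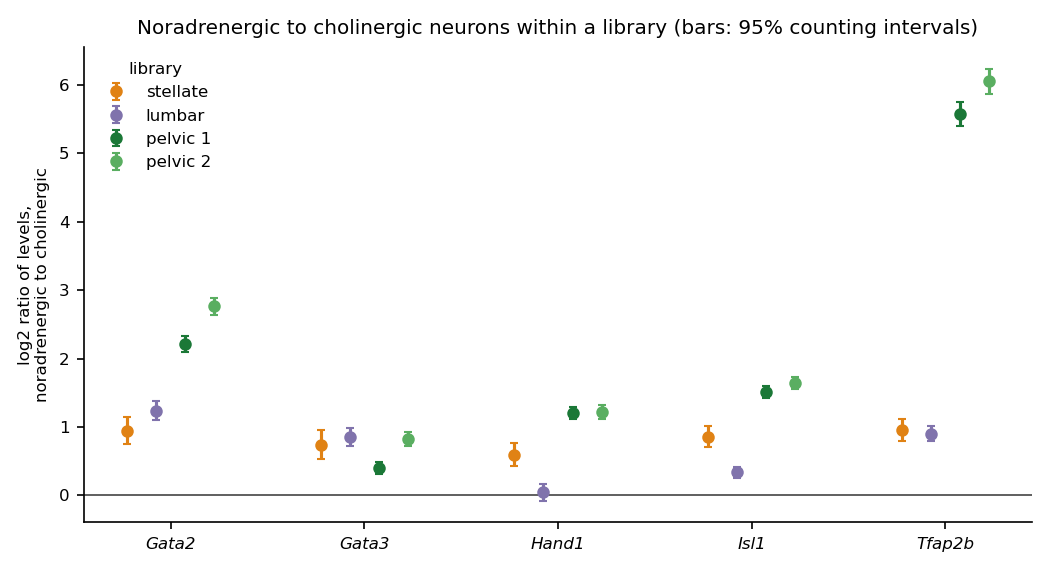
Log2 ratio of the level in noradrenergic to that in cholinergic neurons of the same library, for each factor, with 95% counting intervals, in the 4 libraries with at least 20 neurons of each class. The pelvic points for *Tfap2b*, at ratios of 47.8 and 66.5, stand apart from those of the stellate and lumbar libraries (1.93 and 1.87), while for *Gata3* the 4 libraries are mixed.

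Most sympathetic neurons held *Gata2*, *Gata3*, *Hand1* and *Isl1* all at once, as did nearly all pelvic noradrenergic neurons, and fewer of the pelvic cholinergic ones did. All 4 had a UMI in 83.6% (95% Clopper-Pearson interval 82.2 to 85.0) of 2724 stellate, 89.0% (84.3 to 92.7) of 237 coeliac and 85.1% (82.6 to 87.3) of 930 lumbar neurons. In the pelvic libraries they did in 51.1% and 52.6% of all neurons, in 97.6% and 100% of the noradrenergic and in 42.9% and 48.9% of the cholinergic neurons. None of the 1903 sphenopalatine neurons had all 4, and 99.1% had none of them. In glial cells all 4 were seen in 0% to 0.883% of cells.

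The factor most often missing from pelvic cholinergic neurons was *Gata2*. Exactly 3 of the 4 were detected in 40.3% and 33.5% of these neurons, and none in 0.395% and 3.08%. *Gata2* had a UMI in 51.6% and 55.7% of them, while *Gata3* had one in 94.3% and 91.1%, *Hand1* in 90.4% and 88.0% and *Isl1* in 86.6% and 85.2%. Of the neurons with *Gata2*, 96.4% and 97.8% also had *Gata3*, and 52.7% and 59.8% of the neurons with *Gata3* had *Gata2*. Each value lay close to, and somewhat above, the share of that gene over all these neurons. The gap between both pairs of values is thus mostly that of the single shares.

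At full depth joint detection lay close to the product of the single shares in stellate neurons and above it in pelvic cholinergic neurons, though not only there. In stellate neurons 83.6% had all 4 against a product of 81.3%, and in pelvic cholinergic neurons 42.9% and 48.9% against 38.1% and 38.0%. Coeliac neurons stood at 89.0% against 84.5%, lumbar neurons at 85.1% against 78.8% and the 47 lumbar cholinergic neurons at 80.9% against 65.0%. Neurons of unequal depth raise joint detection above the product. With each neuron thinned to 4000 UMIs the values were 11.1% against 11.6% in stellate, 16.4% against 15.5% in coeliac and 6.97% against 8.03% in lumbar neurons. In pelvic cholinergic neurons they were 0.922% (0.372 to 1.89) and 1.60% (0.521 to 3.69) against 0.639% and 0.511%. These rest on 7 of 759 and 5 of 313 neurons. The pelvic_1 interval held its product, and the pelvic_2 interval began just above its own. At that depth *Gata2* and *Gata3* were seen together in 7.91% and 7.99% of pelvic cholinergic neurons, against products of 6.22% and 4.68%. *Tfap2b* joined the 4 in 82.3% of stellate, 88.6% of coeliac and 84.7% of lumbar neurons, in 97.6% and 100% of pelvic noradrenergic neurons, and in 5.53% and 7.69% of pelvic cholinergic neurons.

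**Figure D3:**
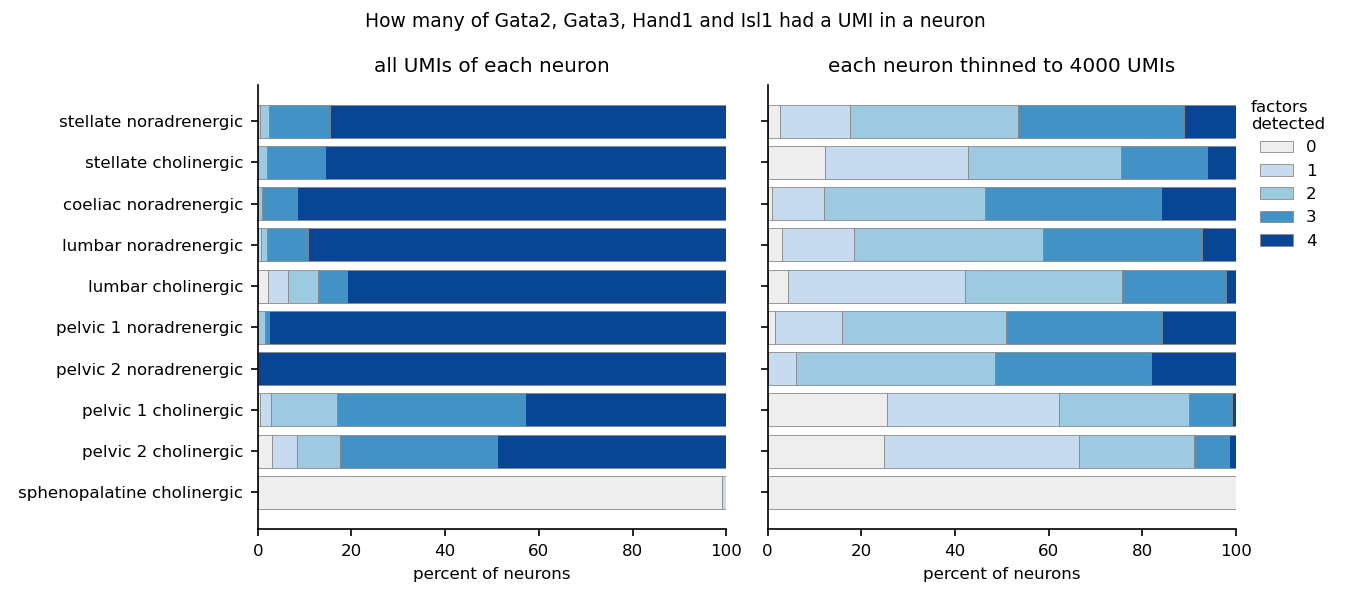
Percent of neurons in which 0, 1, 2, 3 or all 4 of *Gata2*, *Gata3*, *Hand1* and *Isl1* had a UMI, by library and class, with all UMIs (left) and with each neuron thinned to 4000 UMIs (right). All 4 were seen in 84.5% of stellate noradrenergic and 42.9% of pelvic_1 cholinergic neurons, and sphenopalatine neurons lie almost wholly in the class of 0.

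The levels of *Gata3* and *Hand1* in single neurons ran against each other in sympathetic noradrenergic neurons and together in pelvic cholinergic neurons. Noradrenergic neurons of each library were put in 4 equal bins by their *Hand1* UMIs per total UMIs. In the stellate library the bin lowest in *Hand1*, at 50.1 CPM, held *Gata3* at 258, and the highest, at 451, held it at 128. In the lumbar library *Gata3* went from 281 in the lowest to 159 in the highest bin, and in the coeliac from 233 to 162. Spearman's rho between the levels of both genes was -0.33 over 2622 stellate, -0.33 over 836 lumbar and -0.17 over 225 coeliac noradrenergic neurons.

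In pelvic cholinergic neurons *Gata3* went the other way, from 113 to 221 CPM over the *Hand1* bins of pelvic_1 and from 87.7 to 191 over those of pelvic_2. There rho was 0.35 over 760 and 0.31 over 325 neurons. In the few sympathetic cholinergic neurons rho was 0.15 over 49 stellate and -0.054 over 47 lumbar neurons. Among the 126 noradrenergic neurons of pelvic_1, *Gata3* stood between 219 and 240 in the 4 bins, with overlapping intervals. *Gata2* and *Tfap2b* stood over the stellate bins between 220 and 238 and between 307 and 343. Elsewhere other factors moved with *Hand1* too. *Isl1* went from 472 in the lowest to 336 in the highest lumbar bin (rho -0.24). In pelvic cholinergic neurons *Gata2* went from 22.0 to 49.8 in pelvic_1 and from 11.1 to 53.0 in pelvic_2 (rho 0.23 and 0.27). There *Gata2* and *Gata3* had a rho of 0.37 and 0.42. The median UMIs per neuron moved with the bins, from 19718 to 31885 in the stellate and from 54488 to 105513 in the lumbar library, and their part in this was not tested. With each neuron thinned to 4000 UMIs the rho of *Gata3* and *Hand1* was -0.12 in the stellate, -0.068 in the lumbar and -0.16 in the coeliac noradrenergic neurons. It was 0.089 and 0.083 in the pelvic cholinergic neurons, and all were weak values of unchanged sign. Thinned, *Isl1* and *Hand1* had a rho of -0.13 in lumbar noradrenergic neurons, and *Gata2* and *Hand1* 0.0068 and 0.079 in pelvic cholinergic neurons. Neurons of 1 library share its depth and free RNA, so these are descriptions.

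**Figure D4:**
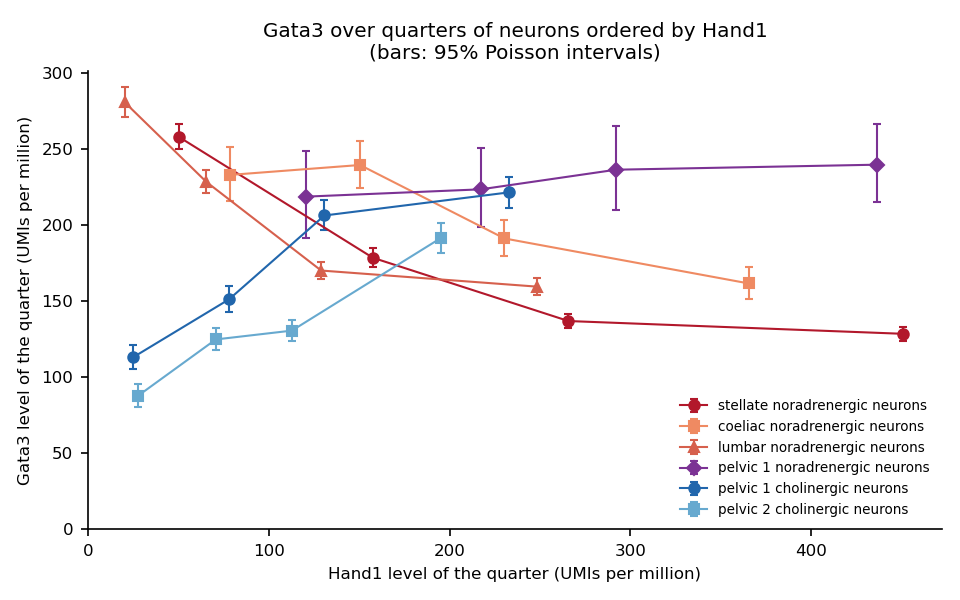
Level of *Gata3* against level of *Hand1* (both in CPM) in 4 bins of neurons ordered by *Hand1* within a library and class, with 95% Poisson intervals for *Gata3*. The lines of stellate, coeliac and lumbar noradrenergic neurons go down, from 258 to 128 in the stellate, and those of pelvic cholinergic neurons go up, from 113 to 221 in pelvic_1.

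Among clusters of pelvic neurons the factors came in different mixtures, and only one cluster held all 5 at high level. Neurons of both pelvic libraries were clustered without the members and the transmitter genes, and clusters were named only by the study's marker genes. Cluster 4, P3-like, with 164 neurons, held *Gata2* at 227 ± 20, *Gata3* at 238 ± 3.0, *Hand1* at 263 ± 26, *Isl1* at 328 ± 48 and *Tfap2b* at 512 ± 62 CPM (SD, n = 2 libraries). Its leading genes were *Th*, *Slc6a2* and *Dbh*.

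Cluster 1, P2-like and the largest at 342 neurons, held *Gata3* at 257 ± 2.0, as high as cluster 4, with *Gata2* at 82.0 ± 0.72, *Hand1* at 135 ± 9.4, *Isl1* at 105 ± 14 and *Tfap2b* at 0.463 ± 0.65. Of the pair of P1-like clusters, cluster 2 held *Gata3* at 124 ± 11 and *Hand1* at 124 ± 13, with *Gata2* at 16.4 ± 0.97, and cluster 3 held *Gata3* at 51.5 ± 10, *Hand1* at 76.6 ± 5.8, *Isl1* at 31.1 ± 4.8 and *Gata2* at 8.54 ± 0.21. Cluster 7, P4-like, was another mixture, with *Isl1* at 261 ± 50 and in all of its 89 neurons, but *Gata3* at 43.6 ± 1.8, *Hand1* at 47.5 ± 2.7 and *Gata2* at 8.08 ± 5.3. Among the named clusters *Isl1* was thus high in the P3-like and P4-like clusters and *Gata3* in the P3-like and P2-like clusters.

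The *Gata2* levels of clusters 3 and 7 lay near those of pelvic glial cells (9.11 and 4.91). The mean *Tfap2b* levels of clusters 1, 3 and 7, at 0.463, 0.645 and 2.15, lay below the glial 11.9 and 7.37. Glial droplets were shallower than neurons, so glial CPM need not measure the free RNA in neurons, which was not tested. Cluster 6, unnamed and led by *Areg* and *Cartpt*, held *Tfap2b* at 34.2 ± 3.1 in 37.9% ± 6.4 of its 108 neurons, and cluster 2 at 20.3 ± 6.0 in 23.7% ± 3.7 of its 247. Cluster 5, unnamed and led by blood and collagen genes, held it at 13.1 and 8.73 in the 2 libraries, close to the glial values. Since clusters were drawn from the same cells, they were not tested against each other.

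**Figure D5:**
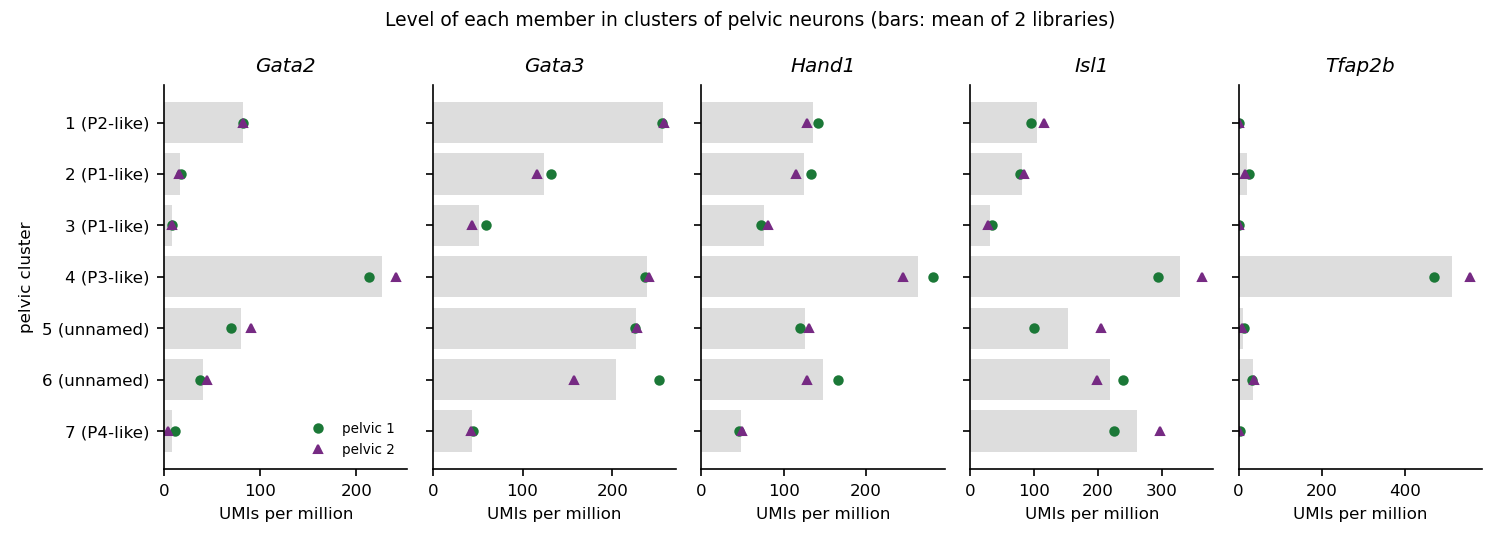
Level of each of the 5 neuronal factors (CPM) in the 7 clusters of pelvic neurons, with the mean of both libraries as bars and each library as a point. *Tfap2b* stands out in cluster 4 at 512, *Gata3* is high in clusters 1, 4, 5 and 6, and *Isl1* is high in clusters 4, 6 and 7.

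Few relatives of the members were present. Of the 9 other GATA, HAND, ISL and AP-2 genes looked at, *Hand2*, a second helix-loop-helix factor that parasympathetic neurons also use, was found in 97.3% to 100% of the neurons of every library, sphenopalatine included at 99.2%. In the pelvic test *Hand2* rose in noradrenergic neurons by 0.76 ± 0.16 (log2, SE), adjusted p = 2.95e-05 (edgeR), from 267 and 338 to 425 and 621 CPM. *Gata5* was lower in noradrenergic neurons (adjusted p = 1.12e-09, edgeR), with 98 and 123 UMIs in the pelvic cholinergic and 0 in both noradrenergic sums, at least 5.22-fold and 4.68-fold higher in the former by the limit of 3 UMIs. It is one of the study's marker genes of the P2 cluster. The remaining 7 relatives did not exceed 3.26 CPM in any class, and none of them was tested.

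Of 15 genes whose products are known to bind these factors or act with them, 14 were tested. In pelvic noradrenergic neurons 4 were higher, 2 lower and 8 not called, beside 9.16% of all genes tested that were higher and 11.3% lower, with a median log2 difference of 0.22 beside 0.0031 over all genes tested. *Zfpm2*, the GATA cofactor FOG2, stood at 13.9 and 29.9 CPM in noradrenergic and 0.127 and 0.332 in cholinergic neurons, a log2 difference of 6.503 ± 0.35 (SE), adjusted p = 2.18e-75 (edgeR). Its paralogue *Zfpm1* did not pass (log2 0.33, edgeR adjusted p = 0.182). As with *Tfap2b*, the paper's screen of these cells had placed *Zfpm2* with the noradrenergic phenotype, so its difference is no independent finding. Among the LIM-only genes, whose products bind GATA and LIM-domain complexes, *Lmo1* had a log2 difference of 3.53 ± 0.17 and *Lmo4* of -4.33 ± 0.20, with levels of 126 and 122 against 11.1 and 10.1 for *Lmo1*, and 14.3 and 11.9 against 228 and 309 for *Lmo4*. *Ldb2*, a LIM-binding adaptor, was lower in noradrenergic neurons with a log2 difference of -3.73 ± 0.35, while *Ldb1* did not pass (log2 -0.23, edgeR adjusted p = 0.455). The E-protein gene *Tcf4* and the AP-2 corepressor gene *Kctd1* were higher by 0.89 ± 0.15 and 0.98 ± 0.22.

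Of 10 other autonomic factors 9 were tested, of which 3 were higher and 2 lower in noradrenergic neurons, beside the same 9.16% and 11.3% of all genes, with a median log2 difference of 0.088. The factor *Phox2a*, which autonomic neurons share, did not pass (log2 0.034, edgeR adjusted p = 0.933), nor did *Sox4* or *Sox11*. *Insm2* was higher by 6.80 ± 0.23, *Tlx3* by 2.13 ± 0.16 and *Tbx20* by 1.70 ± 0.16, and *Hmx1* had a log2 difference of -5.90 ± 0.28. The paper's screen had also placed *Insm2* with the noradrenergic phenotype. Set beside sympathetic neurons of the same transmitter, with no test, *Hmx1* was at 165 and 409 CPM in stellate and lumbar noradrenergic neurons and at 1.19 and 1.59 in the pelvic ones, and *Tlx3* at 4.57 and 3.85 against 71.7 and 67.3. The 7 noradrenergic genes of the list were all higher and the 4 cholinergic genes all lower, with medians of 3.96 and -6.36, a result that the classes fix for *Th*, *Chat*, *Slc18a3* and *Slc5a7*. None of the sphenopalatine factors *Hmx2*, *Hmx3*, *Dlx5*, *Dlx6* and *Ebf3* had enough UMIs in pelvic neurons to be tested, none being above 0.397 CPM there, against 12.3 to 32.4 in sphenopalatine neurons.

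For *Gata2*, *Gata3*, *Hand1* and *Isl1* the closest match was in each case another of these genes. Over 10 groups of neurons (library by class, at least 20 neurons) and 9832 genes, the gene whose log2 level ran most like that of *Isl1* was *Gata2*, with a Pearson r of 0.978, then *Hand1* (0.978) and *Gata3* (0.966). For *Gata3* the closest were *Hand1* (0.982), *B3galt1* (0.978) and *Hoxd4* (0.969), and for *Hand1* they were *Gata3*, *Isl1* and *Hoxd3os1* (0.963). For *Gata2* they were *Isl1*, *Plk2* (0.968) and *Man1c1* (0.965). *Tfap2b* was closest to *Gch1* (0.974), which serves the synthesis of the cofactor of tyrosine hydroxylase, then *Plk2* (0.969). Its r was 0.939 with *Gata2*, 0.876 with *Isl1*, 0.824 with *Hand1* and 0.764 with *Gata3*. *Tfap2a* was under 10 CPM in every group, and the genes closest to its trace levels were *Nrip3* (0.953), *Abca8a* (0.951) and *Apoe* (0.947). The groups share libraries and depth, and one of them, the sphenopalatine, is near 0 for 5 of the members, so these are descriptions.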

How the data were processed

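Single-cell 3' libraries of 6 ganglion preparations were used. The deposited values are raw UMI counts, which the authors made with Cell Ranger 6.0.1 on mm10 (versions from the submitters' processing notes) and did not normalise. The members and gene lists were chosen with earlier results of these data known.

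A droplet was kept if it held more than 1500 but fewer than 11000 genes and its mitochondrial share was below 15%. Values were normalised with sctransform 0.4.2 (Seurat 5.3.0, R 4.3.3) to select neurons as in the study, by a neuronal marker mean above 3, and droplets whose glial marker mean reached 1.15, where the histogram has its valley, were left out. No droplets were removed by a doublet caller, and leaving out the 6% with the highest scrublet score in each library was an alternative. Levels, shares and exact 95% intervals were computed from raw counts with Python 3.11.15, numpy 2.4.6 and scipy 1.17.1. Clusters were made with scikit-learn 1.9.0 and python-igraph 0.11.9 (Louvain, resolution 0.3), and scrublet scores with scanpy 1.11.5.

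Pelvic class sums were tested with edgeR 4.0.16 (TMM, quasi-likelihood, library as a block) and, as an alternative, DESeq2 1.42.0. Both classes of a library come from the same preparation, and their deviations from the class means correlated at 0.63 over 14176 genes, so the library was kept as a block. On simulated sums 67% of 100 genes changed by 1 (log2) and 97% of 100 changed by 2 were recovered, among 14155 genes tested. The simulation gave every gene the same spread and both classes the same library effect. It could thus not check the use of a spread pooled over genes. Genes named are the members, listed genes that passed the test, family relatives and the 3 genes most like each member. Some listed genes that did not pass were also named after their values were seen, and a few genes the rule names are not reported here. Alternatives covered depth, positivity, neuron selection, glial and doublet exclusion, class definition, filter, block, tool and left-out libraries.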

Additional observations from a re-analysis of the deposited data

Results flagged for a closer look

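The relation of *Gata3* to *Hand1* in single neurons had opposite signs in different groups. Spearman's rho was -0.3335 over 2622 stellate, -0.1676 over 225 coeliac and -0.3323 over 836 lumbar noradrenergic neurons, and 0.3469 over 760 pelvic_1 and 0.3078 over 325 pelvic_2 cholinergic neurons. For these classes the 3 sympathetic libraries lay on one side of 0 and both pelvic libraries on the other. This split was the condition for listing the item, with the pair and the groups set by name among others computed. It is thus no separate finding. The difference was not tested. The ganglia differ here in transmitter class too, and among pelvic noradrenergic neurons rho was 0.11 over 126 and -0.11 over 33 neurons, while among sympathetic cholinergic neurons it was 0.15 over 49 stellate and -0.054 over 47 lumbar neurons. The parts of ganglion and class in the signs were not tested. With neurons thinned to 4000 UMIs the values were -0.12, -0.16, -0.068, 0.089 and 0.083 in the same order.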

How the results depend on the processing

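Of the alternatives to the main results, 118 were counted as the same, 13 as moved and 3 as ending a call, and none reversed a direction. For a test rerun under another setting, the same meant an unchanged sign and call, whatever the size. For shares, levels and clusters it meant within the SD of the pelvic libraries. With either pelvic library left out, that outcome was fixed in advance, so 118 is no measure of stability. Of the single values by gene or library, 284 were the same and 94 moved. For 1 library the same meant within its 95% counting interval. With CPM averaged over neurons in place of summed, 15 levels moved and 15 did not. In stellate neurons *Gata3* was then at 196 against 166 CPM and *Hand1* at 227 against 252. Depth mattered most for shares. The mean share over the 5 neuronal factors in pelvic neurons, 70.2%, was 30.01% when thinned to 4000 UMIs and 60.98% when 2 UMIs were asked for. The pelvic share with all of *Gata2*, *Gata3*, *Hand1* and *Isl1*, 51.8%, was 3.201% thinned, 36.97% from 2 UMIs, 50.28% with neurons selected on log counts and 53.05% with stricter glial exclusion. Pelvic noradrenergic neurons numbered 159, or 89 when the classes were called anew on thinned UMIs (thinned shares and tests kept the classes of all UMIs), and cholinergic neurons 1085 and, by *Th* against *Chat* alone, 702. Without the replicate block the log2 difference was 0.5804 for *Gata3* (adjusted p = 0.406, edgeR) and 1.196 for *Hand1* (adjusted p = 0.0609, edgeR), and both calls were lost. Thinned, *Gata3* was at 0.3861 and was lost too. The block changed no other call among the members. *Hand1* ran from 1.209 to 1.215 with either pelvic library left out, values with no test. Genes called numbered 2906, against 570 without the block, 626 thinned (of 8363 tested) and 1512 with DESeq2. The cause was not tested, except that thinning tests fewer genes on fewer UMIs. *Tfap2a* could not be fitted on thinned sums or with stricter glial exclusion, where its counts fell under the filter. Depth limits all shares, and the 33 noradrenergic neurons of pelvic_2 limit that class.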

Other observations

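*Gata2*, which endothelial cells are known to use, was also found in the endothelial cells of these ganglia. It had a UMI in 199 of 457 endothelial cells of all libraries, or 43.5%, at 66.9 CPM. In the sphenopalatine library, where neurons had next to none, it was in 38 of 87 endothelial cells at 53.1 CPM, and these cells had no UMI of *Hand1*, *Isl1* or *Tfap2b*. Sphenopalatine glia had *Gata2* in 27 of 1569 cells at 3.75 CPM.

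In pelvic fibroblasts *Isl1* and *Gata2* were found more often than *Hand1* and *Tfap2b*, with no test. *Isl1* had a UMI in 86 of 524 fibroblasts of pelvic_1 and 50 of 124 of pelvic_2, at 33.6 and 48.8 CPM, and *Gata2* in 83 and 44 of them, at 23.7 and 40.9 CPM. *Hand1* was in 18 and 3 of the same cells and *Tfap2b* in 8 and 1. Of 524 sphenopalatine fibroblasts none had *Isl1*, which allows a share of up to 0.573%, and 3 had *Gata2*. *Isl1* was also seen in 21.7% of 120 coeliac fibroblasts at 22.9 CPM, in 15.2% of 703 stellate fibroblasts at 49.3 CPM and in 7.14% of 98 lumbar fibroblasts. Detection of *Isl1* in fibroblasts was thus not particular to the pelvic libraries. In the stellate fibroblasts *Hand1* and *Tfap2b*, at 11.9% and 10.7%, lay closer to *Isl1* than in the pelvic ones, and *Gata2* was at 11.5%. The part of free neuronal RNA in these values was not tested.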
